A study of Mus musculus with 6 samples.

Results

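The genes of 4 secreted or surface proteins of the inner ear were followed in the cochlea of male DBA/2J mice. They were Tecta (alpha-tectorin), Tectb (beta-tectorin), Otog (otogelin) and Otoa (otoancorin). The genes were taken by name: each probe set of the array annotated with exactly one of these symbols and no other was included, dim ones too. This gave 4 genes with 1 probe set each, out of 12393 genes that had a probe set of a single symbol. The series holds total RNA from the cochlea of DBA/2J males aged 36 weeks (n = 3) and DBA/2J males aged 7 weeks (n = 3), on 1 single-colour Affymetrix array per sample. No treatment or engineered allele is given for either age, and DBA/2J is an inbred strain known for early hearing loss. The labels do not say how many animals or ears went into a sample, so a p-value measures the spread between these samples, which may in part be technical.

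The organ of Corti, the sensory epithelium of the cochlea, is covered by the tectorial membrane, a gel of collagen and glycoprotein against which the hair bundles of outer hair cells are deflected by sound. The tectorins carry a zona pellucida domain, the polymerising module of egg-coat proteins, and form the striated sheet of that gel, while otogelin, a mucin-like protein with von Willebrand factor type D domains, is found in all the acellular membranes of the inner ear, those over the vestibular organs included. Otoancorin lies between such gels and the surface of the non-sensory cells beneath them, and attaches the tectorial membrane to the spiral limbus. In the mouse the tectorin genes are transcribed most strongly while the membrane is being laid down, before hearing begins.

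The arrays had similar signal distributions, with medians between 844.0 and 859.4 at 36 weeks and between 766.3 and 800.5 at 7 weeks. The values carry no detection call. Signals were therefore set against the 65 probe sets of olfactory and vomeronasal receptors, genes not expected in the cochlea. The 95th percentile of their signals lay between 904.7 and 915.7 on the arrays of 36 weeks and between 713.1 and 1024 on those of 7 weeks. A signal above that level on an array is called above background here, which is a rough guide because probes differ in their response. Precision is limited by having 3 arrays per age.

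Transcripts of 3 of the 4 membrane proteins were lower in the old cochlea. Otog, Otoa and Tectb each fell to 0.522, 0.472 and 0.448 times their 7-week signal at 36 weeks, and passed the test, Tectb after clearing the filter on dim probe sets only through its 7-week signals. The test was limma on log2(signal + 50) over 13575 probe sets, with a Benjamini-Hochberg adjusted p under 0.05 as the threshold. By the same rule 33.6% of all tested probe sets passed, 17.3% lower and 16.2% higher at 36 weeks. Tecta was too dim for that test, with a mean signal of 284.1 at 36 weeks and 591.0 at 7 weeks. Because whole tissue was measured, fewer cells of a type and less RNA per cell cannot be told apart. Log2 differences below are 36 weeks minus 7 weeks with their standard error (SE).

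Otog, the membrane glycoprotein otogelin, had signals of 3227.8, 2676.0 and 2764.0 at 36 weeks, against 4836.7, 5221.8 and 6531.7 at 7 weeks. The ages did not overlap, and Otog was above background on 3 of 3 arrays at both. The mean was 2889 ± 296 at 36 weeks and 5530 ± 889 at 7 weeks (SD, n = 3 each). Otog fell by 0.92 ± 0.13 on the log2 scale, with an adjusted p of 0.000284 (limma). The 9 ratios of an old to a young array, the pairs named in the series design, lay between 0.410 and 0.667. Replicate 3 of 7 weeks was the highest array, and without it the log2 difference was -0.79.

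Otoa, the anchoring protein otoancorin, had signals of 1139.2, 987.8 and 1189.4 at 36 weeks, against 2395.2, 2443.2 and 2194.9 at 7 weeks. The arrays of each age lay close together and the ages were well apart. All 3 arrays of both ages were above background, although those of 36 weeks only by a small margin. The mean was 1105 ± 105 at 36 weeks and 2344 ± 132 at 7 weeks (SD, n = 3 each), a 2.12-fold lower signal at 36 weeks. The log2 difference was -1.05 ± 0.13, with an adjusted p of 0.000160 (limma), and the 9 old-to-young ratios covered the narrow range of 0.404 to 0.542.

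Tectb, beta-tectorin, had signals of 563.4, 597.1 and 431.5 at 36 weeks, against 1482.8, 1270.1 and 803.5 at 7 weeks. The ages did not overlap, but the young arrays differed among themselves, replicate 3 being the lowest. The mean was 530.7 ± 87.5 at 36 weeks and 1185 ± 347 at 7 weeks (SD, n = 3 each). Tectb was above background on 0 of 3 arrays at 36 weeks and on 2 of 3 at 7 weeks, so the size of its fall depends on the floor of the signal. Its signals at 36 weeks also lay under the 40th percentile of those arrays (604.2 to 619.0), so Tectb passed the filter on dim probe sets through its 7-week signals. The log2 difference was -1.06 ± 0.26, with an adjusted p of 0.00900 (limma). In a fit with no filter on dim probe sets the adjusted p was 0.0232 (limma), still under the threshold. With the filter, the call held without each array in turn. The log2 difference was -0.88 without replicate 1 of 7 weeks and -1.30 without replicate 3 of 7 weeks.

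Tecta, alpha-tectorin, had signals of 245.0, 393.5 and 213.7 at 36 weeks, against 584.1, 626.2 and 562.8 at 7 weeks. All old arrays were below all young ones, yet the signal was above background on 0 of 3 arrays at either age, so Tecta was not detected by this measure. Its mean over the arrays stood at the 32.0th percentile of all probe sets, under the filter at the 40th. In a fit with no filter on dim probe sets the log2 difference was -0.98 ± 0.32, with an adjusted p of 0.0658 (limma), which missed the threshold. In that fit 9.99% of all probe sets passed as lower at 36 weeks. Without replicate 2 of 36 weeks, the brightest old array for this gene, the adjusted p was 0.0464, within a range of 0.0383 to 0.161 over the alternatives tried (limma).

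**Figure D1:**
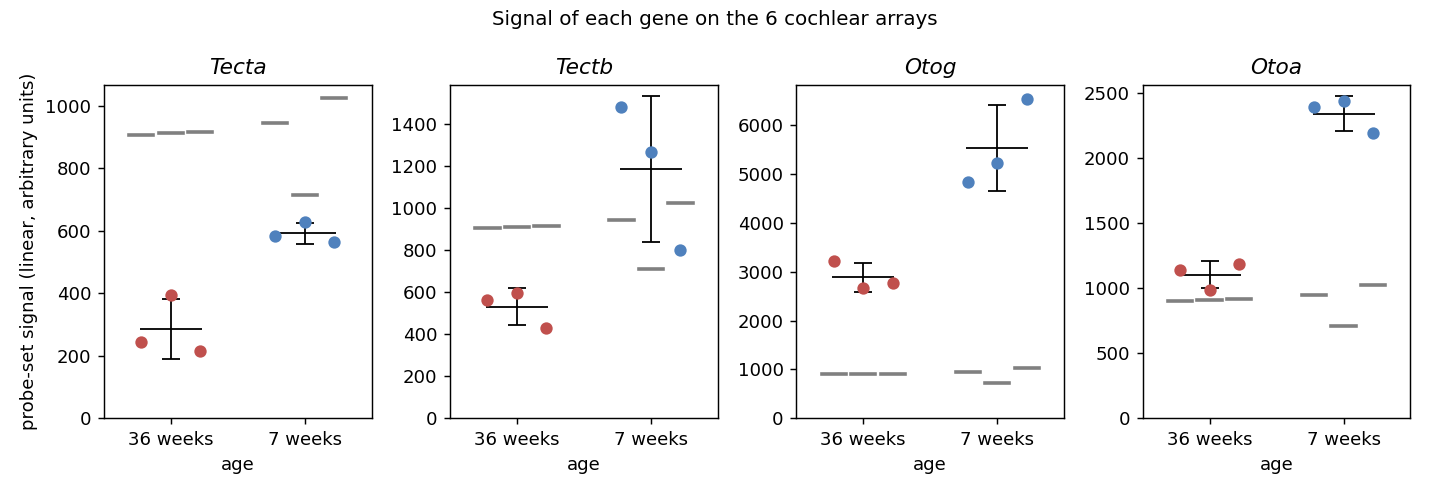
Linear probe-set signal of Tecta, Tectb, Otog and Otoa on each array, with 36 weeks on the left (red) and 7 weeks on the right (blue) and replicates 1 to 3 from left to right. Black marks are the mean ± SD (n = 3), and grey bars are the 95th percentile of the receptor probe sets on the same array. All old arrays sit below all young ones in each panel, and only Otog and Otoa lie above the grey bars on all arrays.

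The 36-week arrays lay below the 7-week arrays without overlap for 4 of 4 genes. The same held for 17.8% of all probe sets on the array, and for 23.9% of those tested. The median log2 difference of all tested probe sets was 0.02. Of the tested probe sets, 3.40% had a lower log2 difference than Otoa and 4.81% a lower one than Otog. Tectb is given no such rank because of its dim signal at 36 weeks. The sizes of the falls were compared for Otog and Otoa only, because Tectb at 36 weeks and Tecta at both ages were not above background. For Otog and Otoa, the pair above background on all arrays, the log2 differences were 0.14 apart, with p = 0.5 in an exact two-sided permutation test over the arrays (n = 3 per age), where the smallest possible p is 0.1. The log2 ratio of the Otog to the Otoa probe set lay between 1.18 and 1.46 at 36 weeks, inside its range of 1.00 to 1.55 at 7 weeks. This test, with its few arrays, does not show that the pair changed alike.

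The 3 genes that passed the test lie on chromosomes 7 (Otog and Otoa) and 19 (Tectb), and Tecta lies on chromosome 9. The 250 bases before the annotated start of Tectb, Otog and Otoa are shown to let their promoters be compared. They are RefSeq sequences of build GRCm38.p6, all on the plus strand, from the reference strain and not from DBA/2J. Capitals mark matches on either strand to TATAA, the core of the TATA box, and CANNTG, the E-box bound by basic helix-loop-helix factors. They cover chr19:55180476-55180725 for Tectb, chr7:46240737-46240986 for Otog and chr7:121083174-121083423 for Otoa.
Tectb: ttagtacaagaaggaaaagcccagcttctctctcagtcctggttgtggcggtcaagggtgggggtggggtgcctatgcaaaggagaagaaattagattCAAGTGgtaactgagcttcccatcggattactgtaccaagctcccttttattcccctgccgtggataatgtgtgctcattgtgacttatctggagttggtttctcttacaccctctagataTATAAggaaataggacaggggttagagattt
Otog: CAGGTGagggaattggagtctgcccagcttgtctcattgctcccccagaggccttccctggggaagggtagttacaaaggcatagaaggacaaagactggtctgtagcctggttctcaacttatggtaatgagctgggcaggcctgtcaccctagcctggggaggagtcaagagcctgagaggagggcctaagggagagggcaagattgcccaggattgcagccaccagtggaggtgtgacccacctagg
Otoa: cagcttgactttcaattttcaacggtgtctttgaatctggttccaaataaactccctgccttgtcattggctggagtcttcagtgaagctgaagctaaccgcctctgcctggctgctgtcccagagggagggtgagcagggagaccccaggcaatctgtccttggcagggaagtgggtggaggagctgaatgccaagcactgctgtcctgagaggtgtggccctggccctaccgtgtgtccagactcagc

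The 3 windows had little in common among the motifs searched. Tectb held 1 TATAA match, whose first base was 31 bases before the start, and 22.8% of the 32851 promoter windows of this length in the table held that motif. Otog and Otoa held 0. A CANNTG match was found once in Tectb and once in Otog, at the far end of its window, and 0 times in Otoa, while 66.2% of all windows held it. CCAAT, searched on both strands, had 1 match each in Otog and Otoa and 0 in Tectb, against 33.8% of all windows. ACAAT, a core of Sox factor motifs, had 1 match in Tectb and 0 in the others, against 27.7%. A CANNTG match can share letters with a CCAAT or ACAAT match, which was not the case in these windows. The windows of Otog and Otoa had 57.2% and 56.0% G or C and that of Tectb 46.0%, against a median of 52.4% over all windows. A match is a description of these letters and not of factor binding. Tecta has 2 annotated starts, and each of its windows held 2 CANNTG matches and 0 of the other motifs.

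The collagens of the tectorial membrane were lower as well. Of 7 such genes on the array, 6 were tested and 6 fell, with a median log2 difference of -1.19, and 0 rose. Col11a2, a chain of the type XI collagen that forms the membrane's fibrils with type II, fell by 1.07 ± 0.10 (limma adjusted p of 1.16e-05). Col9a1 and Col9a3, chains of the type IX collagen on the surface of those fibrils, had log2 differences of -1.67 ± 0.16 and -3.06 ± 0.28. The signal of Col9a3 at 36 weeks was a dim 226.6, and above background on 0 of 3 arrays, against 2149 at 7 weeks. It lay under the 40th percentile of the old arrays, so Col9a3 passed the filter on dim probe sets through its 7-week signals. Other probe sets of Col9a3, under the filter, had log2 differences of -2.63 and 0.65 in the fit with no filter (limma adjusted p of 0.00678 and 0.341). A second tested probe set of Col9a1 fell by 0.56. Cartilage makes the same type II, IX and XI collagens, and Col5a2, which fell by 1.04, is expressed by fibroblasts in general.

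In a list of 6 other genes, mostly for proteins of the tectorial membrane or of hair bundle attachment, 3 were on the array and 1 was tested. The tested gene, Tmprss3, codes for a transmembrane serine protease needed for hearing, so it does not stand for the tectorial membrane proteins. Tmprss3 had a mean signal of 467.3 ± 58.6 at 36 weeks and 1138 ± 302 at 7 weeks (SD, n = 3 each). It fell by 1.17 ± 0.25 with an adjusted p of 0.00450 (limma), to a level that was not above background on any old array. Its signals at 36 weeks (416.3 to 531.3) also lay under the 40th percentile of those arrays (604.2 to 619.0). Tmprss3 thus passed the filter on dim probe sets through its 7-week signals. Strc, stereocilin, the protein of the outer hair cell bundle that belongs to the same family as Otoa, was below background on all arrays at 567.1 ± 209.3 and 409.4 ± 204.0 at 36 and 7 weeks. Pkhd1l1, a protein of the stereocilia coat in the mouse, was likewise dim, at 252.3 and 113.0. With no filter, Strc and Pkhd1l1 had adjusted p-values of 0.524 and 0.359 (limma).

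Genes of the otoconia, the crystals that the otolithic membrane carries in the vestibular organs, went both ways. Of the 4 tested, 3 fell and 1 rose, with a median of -0.86. Slc26a4, the anion exchanger pendrin, fell by 2.28 ± 0.10, and Sparc, a calcium-binding matrix protein, fell by 0.76 ± 0.06. Both are also expressed in the cochlear lateral wall or in connective tissue and bone. Cyba, the oxidase subunit shared by vestibular cells and phagocytes, rose by 1.98 ± 0.12. Oc90, the main protein of otoconia and the defining gene of this list, was above background on 0 of 3 arrays at either age, with means of 205.7 and 90.4 at 36 and 7 weeks.

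Genes that share protein domains with the tectorins or with otogelin included some that rose. Of 10 listed zona pellucida domain genes on the array, the tectorins left out, 5 were tested. By their brightest probe sets 2 rose and 0 fell, with a median log2 difference of 0.70. The brightest probe set of Eng, endoglin, did not pass. A second one under the filter, with mean signals of 146.9 at 36 weeks and 985.0 at 7 weeks, had a log2 difference of -2.46 in the fit with no filter (limma adjusted p of 0.00248). The genes that rose were Gp2, a granule membrane glycoprotein, by 4.85 ± 0.15 and Dmbt1, a secreted mucosal scavenger protein, by 2.66 ± 0.06. Of 6 listed genes with von Willebrand factor type D domains, Otog left out, 4 were tested. Of these 2 rose and 0 fell, with a median of 0.69. Muc5b, a gel-forming mucin, rose by 4.18 ± 0.08 and Vwf, von Willebrand factor of endothelium, by 0.88 ± 0.19. Both genes of the mesothelin family on the array, Strc and Msln, were under the filter. With no filter Msln, mesothelin, differed by 0.83 with an adjusted p of 0.0673 (limma). Gp2, Dmbt1 and Muc5b are made by secretory epithelium. Airway mucosa genes, a list that itself holds Muc5b, were higher on the same arrays. The part of such tissue in these rises was not tested.

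**Figure D2:**
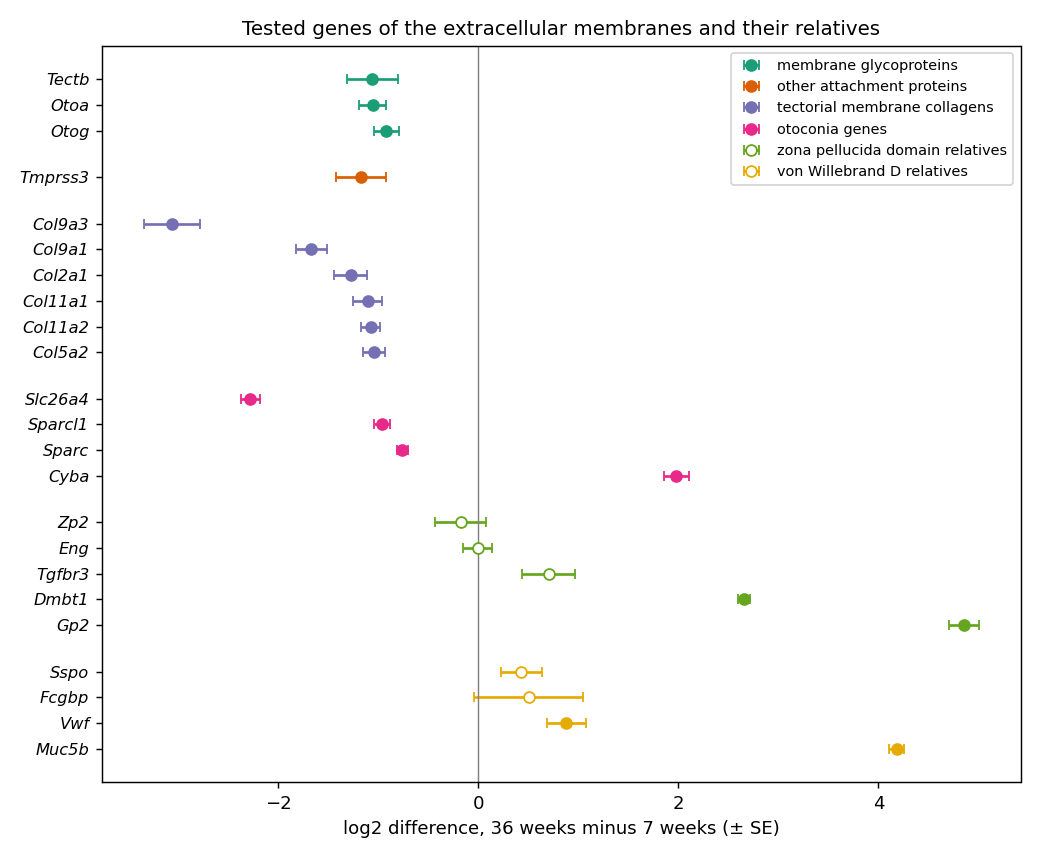
Log2 difference, 36 weeks minus 7 weeks, with its SE (bars, n = 3 arrays per age) for each tested gene, by list. Filled points passed the threshold and open points did not. The membrane glycoproteins and all 6 tested tectorial membrane collagens lie left of 0, whereas the zona pellucida and von Willebrand D relatives that passed lie to the right.

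Genes of supporting cells, hair cells and spiral ligament fibrocytes were read on the same arrays, each by its brightest tested probe set. Of 13 tested genes of supporting and interdental cells, 9 fell and 2 (Lfng and Slc1a3) rose, with a median of -0.63. That median was the value of Sox10, whose other tested probe sets (-0.01 and 0.13) did not pass. Fgfr3 fell by 1.08 with its brightest probe set and did not pass with another (0.16). One tested probe set of Slc1a3 (0.18) did not pass either. Epyc, a small proteoglycan of supporting cells, had a log2 difference of -3.63 ± 0.09, the calcium-binding S100a1 one of -2.18 ± 0.07 and the connexin Gjb2 one of -1.88 ± 0.07. Of 9 tested hair cell genes, 5 fell and 0 rose, with a median of -0.40, and 4 (Atoh1, Myo7a, Myo15 and Tmc1) did not pass, with 0.57, 0.35, 0.23 and -0.08. Pou4f3, a hair cell transcription factor under the filter, had a log2 difference of 1.98 in the fit with no filter (limma adjusted p of 0.0415), although it was above background on 0 of 3 arrays at either age. The log2 differences were -1.14 ± 0.09 for Calb2 and -0.65 ± 0.07 for Pvalb, both calcium buffers, and -2.35 ± 0.37 for Ush1c, harmonin of the hair bundle. Ush1c was above background on 0 of 3 arrays at 36 weeks, so its size depends on the floor. Its signals there also lay under the 40th percentile of those arrays, so Ush1c passed the filter on dim probe sets through its 7-week signals. Pvalb is also abundant in fast skeletal muscle, whose 10 tested genes fell with a median of -1.66, and Calb2 is also expressed by neurons; their part in these values was not tested. Of 7 tested spiral ligament fibrocyte genes, 6 fell and 0 rose, with a median of -1.78. The other gene, Tgfbi, did not pass with the probe set of highest mean over all arrays (0.15), while 2 of its other tested probe sets rose by 0.88 and 0.44. Those that fell included Otos, Coch and Car3 with log2 differences of -2.42, -1.93 and -1.69. The part of skeletal muscle in the falls of Car3 and of S100a1 was not tested either, and both genes count in the means of their lists below.

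The changes of the 4 genes were also set against the mean changes of such lists. This comparison was chosen after seeing the data and is a description without a test. The mean log2 value of the supporting and interdental cell list changed by -0.93. Measured against that mean on the same array, Otog, Otoa, Tectb and Tecta differed by 0.01, -0.13, -0.13 and -0.05 between the ages. For Otog and Tectb no old array lay outside the young range, which for Tectb was wide (SD at 7 weeks 0.46, against 0.21 for Otog). For Otoa 1 old array lay below it, and for Tecta 1 lay above it and 2 below. Measured against the fibrocyte list, whose mean changed by -1.44, they were higher at 36 weeks by 0.53, 0.39, 0.38 and 0.47. Measured against the tested tectorial membrane collagens, whose mean changed by -1.54, they were higher by 0.62, 0.48, 0.48 and 0.56. That mean includes the dim Col9a3 at -3.06, and the median of the collagen list was -1.19, so these gaps depend on Col9a3. Measured against the skeletal muscle list, whose mean changed by -1.55, they were higher by 0.63, 0.50, 0.49 and 0.57. Genes of the supporting cell list ranged from -3.63 (Epyc) to 1.01 (Slc1a3), and its median was -0.63 where its mean was -0.93.

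Markers of other tissues moved in the same comparison. Granulocyte genes rose in 10 of 10 cases, with a summed signal of 681367 to 725805 at 36 weeks and 47495 to 53163 at 7 weeks; S100a9, Ltf and Mpo rose 13.4-fold, 12.6-fold and 14.9-fold. Skeletal muscle genes fell in 10 of 10 cases, with a summed signal of 95790 to 100294 at 36 weeks and 272632 to 293471 at 7 weeks; Tnni2, Mylpf and Acta1 fell 3.85-fold, 5.03-fold and 3.15-fold. Of 8 tested brain and cerebellum genes 7 rose, with Aldoc and Gabra6 at 3.32-fold and 4.85-fold and Cbln1 at a log2 difference of 2.54, and 1 (Mbp) fell by its brightest probe set. Of 8 tested Mbp probe sets, 2 fell by 0.33 and 2 rose by 1.01 and 0.57. The sum of the brain and cerebellum list was 119198 to 130232 at 36 weeks and 88547 to 89183 at 7 weeks. Airway mucosa genes rose in 6 of 6 cases, Tff2 by 23.1-fold and Bpifb1 by 3.88-fold, and their sum was 528636 to 570543 at 36 weeks and 148925 to 161666 at 7 weeks. Among the genes counted, Agr2 and Reg3g of airway mucosa and Ctsg of granulocytes were above background on 0 of 3 arrays at 7 weeks. Their 7-week means (338.9, 392.6 and 354.1) lay under the 40th percentile of those arrays (538.7 to 579.6). These genes thus passed the filter on dim probe sets through their 36-week signals. The part of these tissues in the falls of Otog, Otoa and Tectb was not tested.

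**Figure D3:**
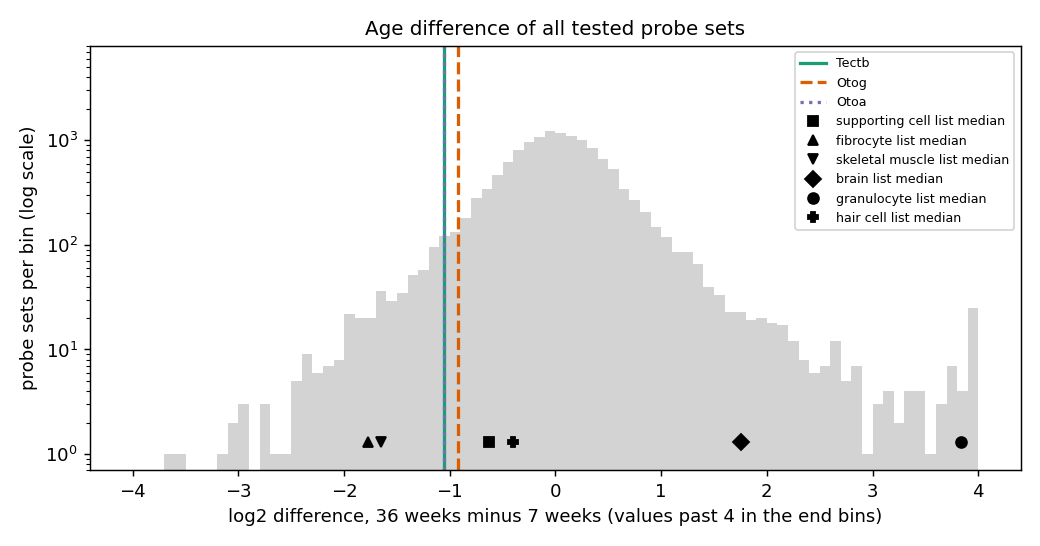
Number of tested probe sets (log scale) by log2 difference, 36 weeks minus 7 weeks, in bins of width 0.1, with Tectb, Otog and Otoa as vertical lines and medians of marker lists as black symbols. The lines of Tectb and Otoa coincide near -1.06 and -1.05, between the median of the fibrocyte list at -1.78 and that of the supporting cell list at -0.63.

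The genes most like each member across the 6 arrays were named by their Pearson correlation of log2 signals, given here as a description because the arrays of an age share that age. For Otoa these were Gpx2, an epithelial glutathione peroxidase (r = 0.9997), Hspa9, a mitochondrial chaperone (r = 0.999), and Ttr, transthyretin (r = 0.999), and 843 probe sets had an r over 0.95. For Otog they were Nip7 (r = 0.996), Lats2, a kinase of the Hippo pathway (r = 0.996), and Glod4 (r = 0.994), with 312 probe sets over 0.95. For Tectb they were Nras, a small GTPase (r = 0.993), Pabpn1, a poly(A)-binding protein (r = 0.992), and Bpnt2 (r = 0.992), with 129 over 0.95. Over the deviations from the age means, which leave out the shared change, the closest were Pcolce2, Cdip1 and Syn2 for Otoa, Polr1a, Arf6 and Aqp4 for Otog, and Pi4k2b, Gimap3 and Cpeb4 for Tectb, all with r of at least 0.9919. The many probe sets over 0.95 leave such patterns poorly separated over 6 arrays.

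**Figure D4:**
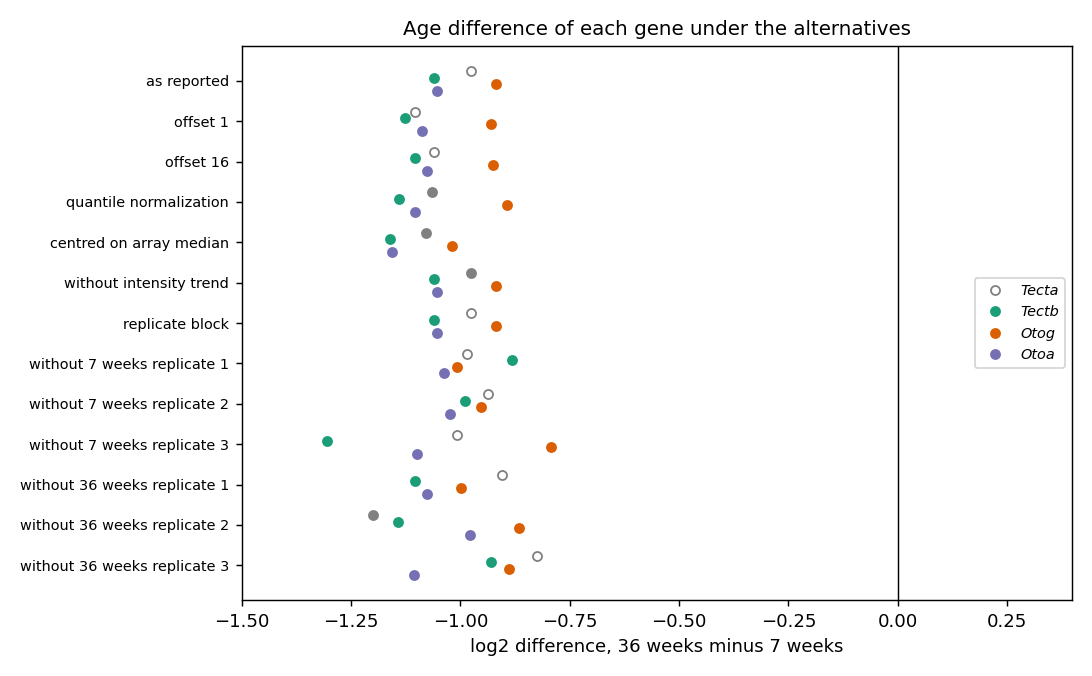
Log2 difference, 36 weeks minus 7 weeks, of Tecta, Tectb, Otog and Otoa under each processing alternative and without each array in turn. Filled points have a limma adjusted p under 0.05, and Tecta is from fits with no filter. All points lie below 0, between -1.30 and -0.79, and Tecta is filled under 4 of the alternatives.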

How the data were processed

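Per the labels' protocols, biotin-labelled cRNA was hybridised to Affymetrix arrays. The deposited values are intensity values, linear 1-colour probe-set signals; the summarising software is not stated in the sources available. From the values, the arrays had been scaled (trimmed means of 1489.8 to 1492.5) but not logged or centred. Platform annotation named the probe sets: 20380 of 22626 had a single symbol, 691 several and 1555 none. All 4 members matched RefSeq (GRCm38.p6).

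Probe sets with a mean log2(signal + 50) above the 40th percentile were fitted with limma 3.58.1 (R 4.3.3; eBayes with intensity trend), unpaired and two-sided, and p-values were Benjamini-Hochberg adjusted over all 13575. The fit was tested on simulated data. Python 3.11.15 and matplotlib 3.10.9 made tables and figures. A listed gene was represented by its brightest tested probe set.

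Members and lists were chosen with earlier results of these data known. The text names all members. Of each other list it names the 3 genes with the smallest p past the threshold (all where at most 3 were measured). It also names the 3 genes of closest pattern by each measure. Col5a2, Oc90, Lfng, Slc1a3, Sox10, Fgfr3, Mbp, Tgfbi, Eng, Atoh1, Myo7a, Myo15, Tmc1 and Pou4f3 were added after their values were seen. Alternatives were other offsets (1 and 16), other normalizations (quantile, median centring), other filters (none, 60th percentile), eBayes with no trend, a replicate block, and leaving out single arrays.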

Additional observations from a re-analysis of the deposited data

How the results depend on the processing

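Otog, Otoa and Tectb kept their direction and their call under every alternative that tested them, with log2 differences of -1.02 to -0.79, -1.16 to -0.98 and -1.30 to -0.88. Under the filter at the 60th percentile Tectb was not tested. Without each array in turn the log2 differences were -1.01 to -0.79 for Otog, -1.11 to -0.98 for Otoa and -1.30 to -0.88 for Tectb (highest limma adjusted p 0.0443). Tecta, fitted with no filter, missed the threshold with -0.98 and passed it with quantile normalization (-1.06, limma adjusted p 0.0472), with centring on the array median (-1.08, 0.0450) and without the intensity trend (-0.98, 0.0383). Without each array in turn its log2 difference was -1.20 to -0.82, with adjusted p-values of 0.0464 to 0.161; the cause was not tested. The 3 member genes lower at 36 weeks stayed 3 without each array in turn and under the other alternatives, except that 2 of 2 passed under the filter at the 60th percentile. Centring on the array median moved the median log2 difference of all tested probe sets to -0.09, against 0.02, and the share of higher calls to 35.4%, against 48.3%; relative to these medians the log2 differences of the members were the same. Without each array in turn, 1772 to 1991 probe sets were higher and 1826 to 2044 lower, against 2203 and 2355. Of the 34 other genes named from the lists by the rule above, 33 kept their call under all alternatives that tested them. The other, Msln, passed (0.83) without the intensity trend. The genes added after their values were seen and those of closest pattern are not in this count. Of the added genes, Lfng missed the threshold with no filter (limma adjusted p 0.0551). The replicate numbers did not pair the arrays (correlations of same-numbered deviations of 0.05, -0.01 and 0.00). With the replicate block 2071 probe sets were higher and 2226 lower, and the members had log2 differences of -0.92 (Otog), -1.05 (Otoa), -1.06 (Tectb) and -0.98 (Tecta, no filter), with no call changed. Dim signal limits Tectb at 36 weeks and Tecta at both ages.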
